A study of Mus musculus with 16 samples.

Results

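Toll-like receptors are the transmembrane sensors through which macrophages recognise microbial products. The 10 receptors described here were Tlr1, Tlr2, Tlr3, Tlr4, Tlr5, Tlr6, Tlr7, Tlr8, Tlr9 and Tlr13. They were taken by their gene symbols from a table of raw read counts that lists 47069 mouse genes, and each of the 10 had exactly 1 row. Their mRNA was measured by RNA-seq in bone marrow-derived macrophages (BMMs), cells grown from the marrow of C57BL/6 mice aged 8 to 10 weeks in medium conditioned by L929 cells, which supplies the growth factor M-CSF. All BMMs had been primed overnight with IFNγ at 10 ng/mL, and all were then activated for 1 hr with Salmonella LPS at 100 ng/mL and immune complexes of ovalbumin and rabbit IgG (LPS/ICs). One group received DAPT at 25 μM, a γ-secretase inhibitor (GSI) that blocks the release of the active Notch intracellular domain, and the control group received the vehicle DMSO at 0.01%. By the study's methods, exposure to inhibitor or vehicle began the night before activation, although shorter pretreatments are described for other experiments, and differences that arose before LPS/ICs were added cannot be told apart from later ones. Both groups were primed and activated, and neither resting BMMs nor BMMs without IFNγ were part of the comparison. There were 2 libraries per group, each the sum of 4 runs. The labels do not say whether the libraries came from separate mice or cultures, so the p-values below measure only the spread between these libraries, which may be technical.

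Toll-like receptors fall into surface and endosomal members. TLR2, which pairs with TLR1 or TLR6, binds bacterial lipoproteins, TLR4 together with its partner LY96 binds LPS, and TLR5 binds flagellin, all at the plasma membrane. TLR3, TLR7, TLR8, TLR9 and TLR13 sense nucleic acids after transport to endosomes. Nearly all of them signal through the adaptor MyD88, TLR3 signals through TRIF, and TLR4 uses both. The LPS in these cultures was a ligand of TLR4 itself, and both groups received it.

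The libraries held between 42694655 and 56932059 counts. A count of 3, taken as the floor of detection, was worth 0.0527 to 0.0703 CPM (counts per 1000000 counts of the library), a value that covers counting error only. The runs of a library differed by about the sampling noise, with a chi-square per degree of freedom of 1.01 to 1.03, whereas replicates of the DMSO and of the GSI group differed well beyond it, at 14.7 and 16.6. All 8 macrophage markers on the list were expressed, led by Lyz2, the lysozyme of myeloid cells, at a mean of 5402 CPM in DMSO and 4601 CPM in GSI libraries. The defining T cell gene Cd3g, the neutrophil elastase gene Elane and the plasmacytoid dendritic cell gene Siglech had 0 counts in every library, and Pax5, a transcription factor gene of B cells, had 0 counts in both DMSO libraries and at most 1 count in a GSI library. Cd79b, which encodes a part of the B cell receptor, was detected at a low level in all 4 libraries, with 22 and 21 counts in the DMSO and 20 and 13 counts in the GSI libraries.

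With GSI, 8 of the 10 receptors were lower at an FDR under 0.05 in edgeR's quasi-likelihood test, 0 were higher and 2 (Tlr3 and Tlr6) passed in neither direction. The FDR is the Benjamini-Hochberg adjusted p over the 13211 genes tested, all 10 receptors among them. Over those genes, 21.9% were lower and 19% were higher, and among the 7581 genes with a mean of at least 10 CPM, 25.4% were lower. At an unadjusted p under 0.05 the receptors also numbered 8 lower and 0 higher, against 25.3% lower and 23.8% higher over the genes tested. DESeq2 called 7 lower and 0 higher, without Tlr5, against 16.6% lower and 12% higher over the 14142 genes it tested. Tlr8 was the 1 receptor past both an FDR of 0.05 and an absolute log2 fold change of 1.5, limits that 2.17% of the genes tested passed in the lower direction. With a 1.5-fold limit in its place, Tlr8, Tlr5 and Tlr13 were lower, 3 receptors against 9.05% of the genes tested. The median log2 fold change of the receptors was -0.37, against 0.01 over all genes tested. In 8 receptors both GSI libraries lay under both DMSO libraries, which was also true of 34.8% of the genes tested.

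**Figure D1:**
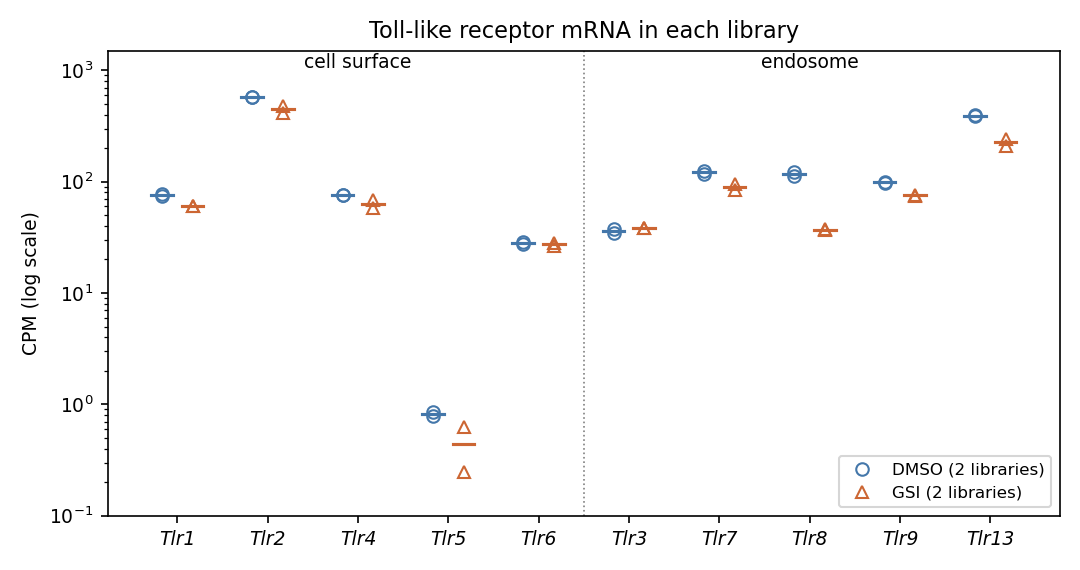
Each point is the level of one Toll-like receptor mRNA in one library, in CPM on a log scale, with circles for DMSO and triangles for GSI, and the short lines are the means of the 2 libraries of a group. The GSI triangles sit under the DMSO circles for 8 receptors, with the widest gap at Tlr8, while those of Tlr6 overlap and those of Tlr3 lie slightly above.

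Other markers moved with the treatment too. The summed level of the 8 macrophage markers was 10793 and 11095 CPM in the DMSO libraries and 8777 and 9544 CPM in the GSI libraries. Of these markers 5 were lower, 1 was higher (Mertk, a receptor for apoptotic cells, log2 fold change 0.64) and 2 passed in neither direction, beside the 21.9% lower and 19% higher over all genes tested. The 6 dendritic cell genes summed to 247 and 240 CPM with DMSO and to 158 and 156 CPM with GSI, of which Clec9a, a receptor for dead cells, made up a mean of 177 and 110 CPM. Of the 4 dendritic cell genes tested 3 were lower. They were Clec9a, the transcription factor gene Tcf4 (61.2 and 43.3 CPM) and the chemokine receptor gene Xcr1 (4.83 and 3.60 CPM). Zbtb46 had 10 to 19 counts per library and was not called. Flt3, with at most 2 counts in a library, and Siglech, with 0, were not tested. The sum of the 7 neutrophil genes stayed at or under 0.807 CPM in every library, most of it S100a8, a calcium-binding protein gene of myeloid cells, with 11 to 33 counts. The 5 T cell genes summed to 1.19 and 1.13 CPM with DMSO and 2.79 and 2.19 CPM with GSI, nearly all of it Lck, a lymphocyte kinase and the 1 gene of that list tested, which rose (log2 fold change 1.14, FDR = 0.000147). The part of these markers in the receptor values was not tested, and in bulk libraries fewer cells of a type and less RNA per cell cannot be told apart.

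In the reported fit, the endosomal receptors held the largest change, that of Tlr8. Without GSI replicate 2, the log2 fold change was -1.71 for the barely expressed surface receptor Tlr5 and -1.68 for Tlr8. Tlr8, an RNA sensor, stood at 123 and 112 CPM in the DMSO libraries and at 36.5 and 37.7 CPM in the GSI libraries. The groups were far apart and each was tight, and the GSI level was 31.6% of the DMSO level (log2 fold change -1.66, SE 0.0759, 95% interval -1.82 to -1.50, FDR = 2.06e-12). Of the 13211 genes tested, 1.75% had a lower log2 fold change. These values rested on 5306 and 6341 counts with DMSO and on 1765 and 1863 counts with GSI. Tlr8 lies on chromosome X at 167242696 to 167264329 on the minus strand (GRCm38, GENCODE M21), a protein-coding gene with 3586 bases of exons. The 250 bases before its start in RefSeq (GRCm38.p6, chrX:167264330-167264579, minus strand) are shown because it had the largest change of the receptors in the reported fit. The capitals mark a pair of overlapping matches of TATAAA, one on each strand, and the window held no match of GTGGGAA, a motif of the Notch effector RBPJ.
Tlr8: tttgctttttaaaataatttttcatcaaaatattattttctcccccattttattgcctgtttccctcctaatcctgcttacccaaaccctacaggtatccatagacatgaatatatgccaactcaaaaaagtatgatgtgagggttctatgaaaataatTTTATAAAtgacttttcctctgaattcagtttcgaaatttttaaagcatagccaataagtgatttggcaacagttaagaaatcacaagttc

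Tlr13, which in mice recognises bacterial ribosomal RNA, was measured at 395 and 387 CPM with DMSO and at 211 and 241 CPM with GSI. All of its GSI values were below its DMSO values, at 57.9% of the DMSO level (log2 fold change -0.79, SE 0.0757, 95% interval -0.95 to -0.63, FDR = 6.30e-08). It was the most abundant endosomal receptor in both groups, with at least 10195 counts in every library. Tlr7, a sensor of single-stranded RNA encoded next to Tlr8, was at 124 and 118 CPM with DMSO and at 84.0 and 94.5 CPM with GSI. That is 73.7% of the DMSO level (log2 fold change -0.44, SE 0.0748, 95% interval -0.60 to -0.28, FDR = 8.18e-05), and the interval did not reach that of Tlr8.

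Tlr9, the receptor for unmethylated CpG DNA, gave 97.3 and 99.9 CPM with DMSO and 76.6 and 74.8 CPM with GSI. The libraries of each group nearly coincided, and the GSI level was 76.8% of the DMSO level (log2 fold change -0.38, SE 0.0696, FDR = 0.000179). Tlr3, the receptor for viral RNA duplexes, gave 37.8 and 34.8 CPM with DMSO and 38.1 and 38.7 CPM with GSI. Both GSI values lay above both DMSO values, but by less than the test could separate (log2 fold change 0.08, 95% interval -0.08 to 0.24, FDR = 0.413). Among the 5 endosomal receptors 4 were thus lower, against 21.9% of all genes tested, and Tlr3 was not called. The median log2 fold change of the 5 was -0.44.

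Promoter windows from 250 bases before to 50 bases after a RefSeq start were matched for 8 of the 10 receptors (not for Tlr4 and Tlr7), in 10 windows. On both strands, GTGGGAA occurred in the windows of 2 receptors, Tlr2 and Tlr9, first base 167 and 189 bases before the start, and in 6.38% of all 32851 windows. The interferon response motif, GAAA and a second GAAA separated by NN, had a pair of overlapping matches in 1 window of Tlr6 and occurred in 3.44% of all windows, and TATAAA was found at Tlr6 and Tlr8 and in 13.6% of all windows. None of the 3 motifs was found in the windows of Tlr1, Tlr3, Tlr5 and Tlr13. The 250 bases before the start of Tlr9 (GRCm38.p6, chr9:106222348-106222597, plus strand) are shown as the window of a lower receptor that holds the RBPJ motif, in capitals here on the other strand. A match describes these letters and says nothing about whether RBPJ binds there.
Tlr9: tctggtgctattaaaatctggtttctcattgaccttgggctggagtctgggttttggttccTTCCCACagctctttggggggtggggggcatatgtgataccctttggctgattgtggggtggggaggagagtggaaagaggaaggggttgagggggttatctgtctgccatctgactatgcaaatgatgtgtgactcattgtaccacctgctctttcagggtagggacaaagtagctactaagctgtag

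Among the surface receptors, Tlr2 was by far the most abundant. This lipoprotein receptor was measured at 573 and 574 CPM with DMSO and at 410 and 481 CPM with GSI. The DMSO libraries coincided, the GSI libraries were further apart and both lower, and the GSI level was 77.6% of the DMSO level (log2 fold change -0.37, SE 0.0792, 95% interval -0.53 to -0.20, FDR = 0.000954). Tlr1, its partner for triacylated lipoproteins, was at 74.2 and 77.1 CPM with DMSO and at 60.6 and 60.0 CPM with GSI (log2 fold change -0.33, SE 0.0707, FDR = 0.000926). The groups of Tlr1 did not overlap. Tlr6, the partner for diacylated lipoproteins, was at 28.9 and 27.8 CPM with DMSO and at 26.4 and 28.1 CPM with GSI. Its groups overlapped, and its log2 fold change of -0.05 had a 95% interval of -0.22 to 0.11 (FDR = 0.633).

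Tlr4, the LPS receptor, was at 75.8 CPM in both DMSO libraries and at 58.2 and 68.8 CPM in the GSI libraries. Both GSI values were lower, with a log2 fold change of -0.26 (SE 0.0798, 95% interval -0.42 to -0.09, FDR = 0.0143). The call rested on GSI replicate 1: without that library the log2 fold change was -0.14 and the FDR was 0.22. Tlr5, the flagellin receptor, was barely expressed, at 0.790 and 0.846 CPM with DMSO and 0.248 and 0.628 CPM with GSI, from 34, 48, 12 and 31 counts. Both GSI values were under both DMSO values (log2 fold change -0.90, SE 0.347, 95% interval -1.62 to -0.17, FDR = 0.0446), but the GSI replicates were far apart. The log2 fold change of Tlr5 was -0.39 (FDR = 0.44) without GSI replicate 1 and -1.71 without GSI replicate 2, so that the size depended on the GSI library. It missed the threshold but kept its size when DMSO replicate 1 (log2 fold change -0.94, FDR = 0.0564) or DMSO replicate 2 (-0.85, FDR = 0.139) was left out. Of the 5 surface receptors 4 were lower, Tlr5 among them, against 21.9% of all genes tested. The median log2 fold change of the 5 was -0.33.

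**Figure D2:**
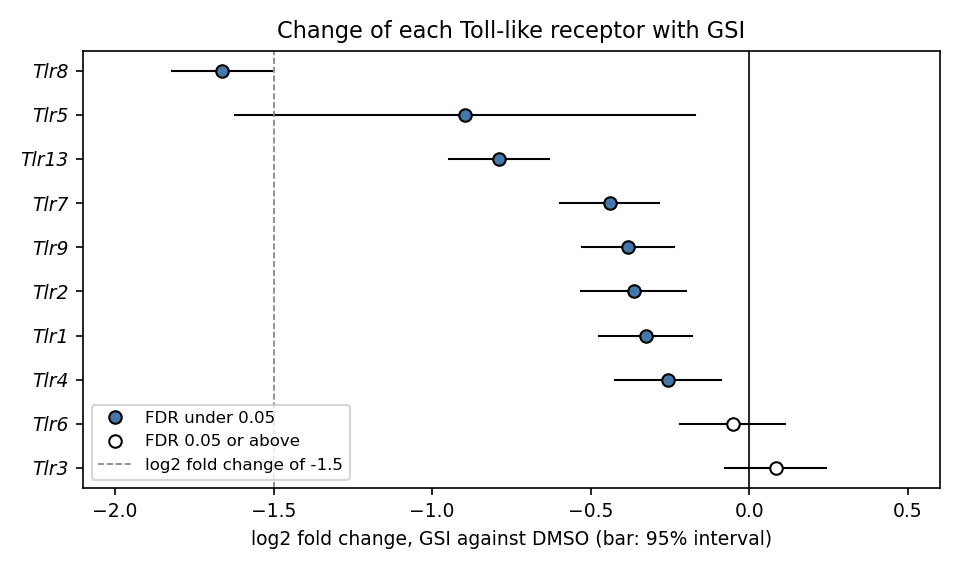
The horizontal axis is the log2 fold change of GSI against DMSO for each receptor, points are edgeR estimates from 2 libraries per group, bars are 95% intervals, and filled points have an FDR under 0.05. Tlr8 at -1.66 stands apart from Tlr13 at -0.79 and from Tlr7, Tlr9, Tlr2, Tlr1 and Tlr4 at -0.44 to -0.26, the bar of Tlr5 is the widest, and the bars of Tlr6 and Tlr3 cross 0.

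Levels of different receptors were compared per kilobase of exons. With DMSO the order was Tlr2 at 190 ± 0.0528 CPM per kilobase (SD, n = 2), Tlr13 at 90.8 ± 1.26, Tlr8 at 32.8 ± 2.28, Tlr7 at 29.7 ± 1.10, Tlr9 at 28.4 ± 0.521, Tlr1 at 22.6 ± 0.606, Tlr4 at 13.6 ± 0.00114, Tlr6 at 7.60 ± 0.210, Tlr3 at 6.98 ± 0.409 and Tlr5 at 0.171 ± 0.00824. Each neighbour in this order was apart from the next in both libraries. With GSI the first and second places stayed with Tlr2 at 148 ± 16.5 and Tlr13 at 52.5 ± 4.99 CPM per kilobase. Tlr8 moved from place 3 to place 7, at 10.4 ± 0.239 CPM per kilobase, where its libraries overlapped those of Tlr4 at 11.4 ± 1.36. Tlr7 and Tlr9 (21.9 ± 1.81 and 21.8 ± 0.374) and Tlr3 and Tlr6 (7.38 ± 0.0803 and 7.32 ± 0.320) were also not separable with GSI. Placed among all genes tested on this scale, Tlr2 exceeded 97.9% of them with DMSO and 97.3% with GSI, and Tlr8 exceeded 89.2% with DMSO and 72.6% with GSI.

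**Figure D3:**
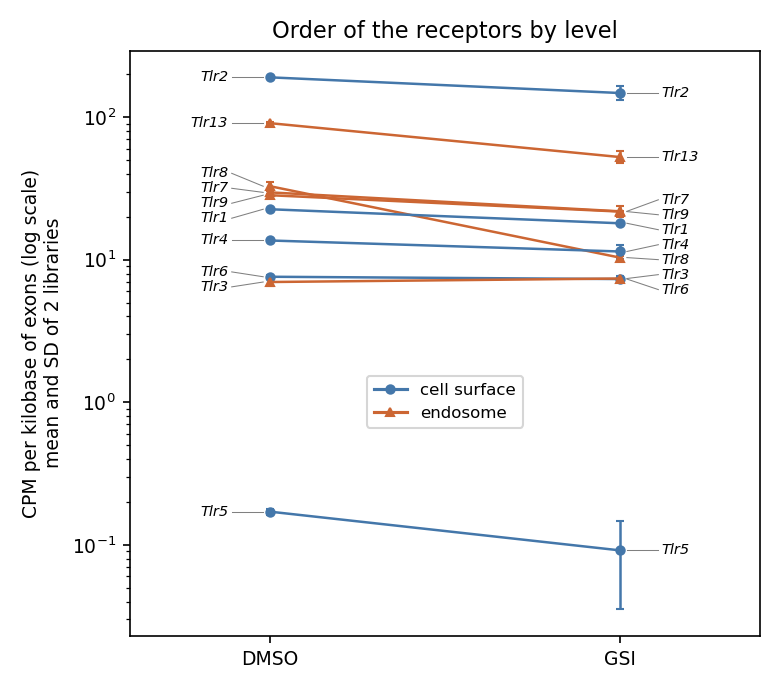
Lines join the mean level of each receptor with DMSO to its mean level with GSI, in CPM per kilobase of exons on a log scale, with bars for the SD of 2 libraries, circles for surface and triangles for endosomal receptors. The line of Tlr8 falls across those of Tlr7, Tlr9, Tlr1 and Tlr4, from 32.8 to 10.4, while the other lines fall less or, for Tlr6 and Tlr3, run nearly level.

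Summed over the 10 receptors, the level was 426 and 420 CPM per kilobase with DMSO and 281 and 316 with GSI. The endosomal receptors made up 45.0% and 44.1% of that sum with DMSO and 38.8% and 37.5% with GSI, so the make-up as well as the total differed between the groups in these libraries. By group means, the share was lower with GSI for Tlr13 (21.5% to 17.6%) and Tlr8 (7.75% to 3.47%). It was higher with GSI for the endosomal receptors Tlr7 (7.02% to 7.32%), Tlr9 (6.7% to 7.3%) and Tlr3 (1.65% to 2.47%). Tlr2 alone held 44.7% and 45.3% of the sum with DMSO and 48.4% and 50.4% with GSI. The ratio of Tlr8 to Tlr7, per kilobase, came to 1.13 and 1.08 in the DMSO libraries against 0.495 and 0.455 in the GSI libraries. On this scale the more abundant of these neighbours with DMSO was the less abundant with GSI. In CPM, without division by length, Tlr7 was above Tlr8 with DMSO too (124 and 118 against 123 and 112 CPM). Tlr13 relative to Tlr2 gave 0.482 and 0.472 in the DMSO against 0.360 and 0.352 in the GSI libraries. Tlr1 relative to Tlr6 gave 2.86 and 3.09 in the DMSO against 2.55 and 2.38 in the GSI libraries. Tlr2 relative to Tlr6 gave 24.6 and 25.6 in the DMSO against 19.2 and 21.1 in the GSI libraries. Tlr3 relative to Tlr8 gave 0.211 and 0.215 in the DMSO against 0.720 and 0.707 in the GSI libraries. None of these ratios overlapped between the groups, and how often ratios of other genes overlap was not counted. An exact two-sided permutation test gave p = 0.333 for each, the smallest value that 2 against 2 libraries allow. The ratio of Tlr2 to its partner Tlr1 overlapped, at 8.58 and 8.27 with DMSO and 7.51 and 8.89 with GSI.

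**Figure D4:**
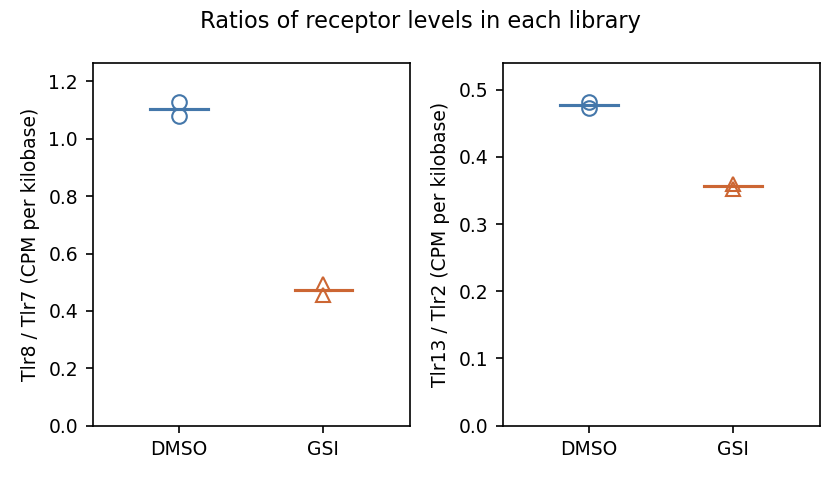
Points are the ratio of receptor levels in CPM per kilobase in each library, Tlr8 over Tlr7 on the left and Tlr13 over Tlr2 on the right, with lines at the mean of the 2 libraries of a group and both axes starting at 0. Tlr8 over Tlr7 goes from above 1 with DMSO (1.13 and 1.08) to 0.495 and 0.455 with GSI, and Tlr13 over Tlr2 from 0.482 and 0.472 to 0.360 and 0.352.

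A pair of neighbouring genes sits at each of 2 loci. Tlr7 (chromosome X, 167304929 to 167330558) and Tlr8 are 40599 bases apart on the same strand, and Tlr1 (chromosome 5, 64924679 to 64933563) and Tlr6 (chromosome 5, 64952031 to 64960097) are 18467 bases apart on the same strand. Reads of Tlr7 and Tlr8 of at least 50 bases could be told apart, since their transcripts shared no 50-base word. A single transcript of Tlr7 and a single transcript of Tlr8, compared directly, shared at most 13 bases in a row. Tlr1 and Tlr6 shared 340 of their 75-base words, which were 10.3% of those of Tlr1 and 9.25% of those of Tlr6, so that part of their reads could belong to either. Tlr1 shared 351 such words (10.6%) with 21 genes in all, Tlr6 among them. With 50-base words, Tlr1 shared 513 (15.4%) with 307 genes in all, and Tlr6 shared 456 (12.3%) with 2 genes. The longest stretch in common was sought between a single transcript of Tlr1 and a single transcript of Tlr6. It covers 229 coding bases at chr5:64925537-64925765 in Tlr1 and chr5:64953828-64954056 in Tlr6 (GRCm38, minus strand). This stretch is shown because reads within it cannot separate the pair.
Tlr1 and Tlr6: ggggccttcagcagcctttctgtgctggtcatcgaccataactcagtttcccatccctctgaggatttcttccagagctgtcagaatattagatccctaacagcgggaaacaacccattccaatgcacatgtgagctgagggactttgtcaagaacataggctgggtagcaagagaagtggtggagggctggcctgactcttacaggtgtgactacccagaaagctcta

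For Tlr2, Tlr5, Tlr7, Tlr8, Tlr9 and Tlr13 no 50-base word of the transcripts occurred in another gene, and Tlr4 shared 12 such words (0.216%) with 2 other genes. Tlr3 (chromosome 8, 45395665 to 45411080) shared 381 exon bases, 7.32% of its exon bases, with the antisense gene Gm45542 on the other strand, which was not analysed here. The libraries were strand-specific, but the strand setting of the read counting was not given in the sources used here. The other receptors shared no exon bases with a gene on the other strand. Tlr2 lies on chromosome 3 at 83836272 to 83841767, Tlr4 on chromosome 4 at 66827584 to 66930284, Tlr5 on chromosome 1 at 182954788 to 182976044, Tlr9 on chromosome 9 at 106222598 to 106226883 and Tlr13 on chromosome X at 106143204 to 106160493.

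The receptors need partners to bind ligands and to leave the endoplasmic reticulum. Of 12 such coreceptor, folding and transport genes 11 were tested, and 5 were lower, 1 was higher and 5 passed in neither direction. Over all genes tested, 21.9% were lower and 19% were higher. The median log2 fold change of the 11 genes was -0.09. The lower genes were Cd36, Ly86, Cd14, Cnpy4 and Cd180. Cd36, a scavenger receptor that assists TLR2 with TLR6, was at 571 ± 16.2 CPM with DMSO and 303 ± 27.6 CPM with GSI (SD, n = 2; log2 fold change -0.91, SE 0.0769, FDR = 1.01e-08). Cd14, which hands LPS to TLR4, was at 1848 and 1761 CPM with DMSO and at 1085 and 1227 CPM with GSI (log2 fold change -0.64, FDR = 1.60e-06). Ly86 and Cd180, whose products form a complex related to that of TLR4, had log2 fold changes of -0.77 (FDR = 3.93e-08) and -0.38 (FDR = 0.000309).

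Cnpy4, related to the chaperone gene Cnpy3, was also lower (log2 fold change -0.45, FDR = 0.000319). Ly96, the obligate partner of TLR4 for LPS binding, was at 14.9 and 13.2 CPM with DMSO and 14.6 and 14.9 CPM with GSI (FDR = 0.559). Unc93b1, which carries the endosomal receptors out of the endoplasmic reticulum, was at 884 and 970 CPM with DMSO and 891 and 958 CPM with GSI, and its 95% interval of -0.16 to 0.16 on the log2 scale was narrow. The chaperone gene Hsp90b1 (log2 fold change -0.09), the trafficking gene Tmed7 (-0.01) and the endolysosomal transporter gene Slc15a4 (0.02) were not called. Cnpy3, whose product folds several receptors together with that of Hsp90b1, rose slightly (log2 fold change 0.21, FDR = 0.0276). Lbp, which binds LPS in serum, had 3 to 7 counts per library and was not tested.

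Of the 6 adaptor genes 4 were lower, 0 were higher and 2 passed in neither direction, against 21.9% lower and 19% higher over all genes tested. The median log2 fold change of the 6 genes was -0.45. Ticam1, which encodes TRIF, was at 67.7 and 70.5 CPM with DMSO and 44.5 and 41.6 CPM with GSI (log2 fold change -0.68, SE 0.0737, FDR = 3.01e-07). Ticam2, the bridge from TLR4 to TRIF, had a log2 fold change of -0.36 (FDR = 0.0199). Tirap, the bridge from TLR2 and TLR4 to MyD88, was at 8.09 and 7.56 CPM with DMSO and 5.03 and 4.86 CPM with GSI (log2 fold change -0.66, FDR = 0.000119). Pik3ap1, which links the receptors to PI3K, was at 442 and 446 CPM with DMSO and 314 and 300.3 CPM with GSI (log2 fold change -0.53, FDR = 4.10e-06). Myd88 was at 239 and 234 CPM with DMSO and 231 and 234 CPM with GSI, with overlapping groups and a 95% interval of -0.17 to 0.12 on the log2 scale (FDR = 0.812). Sarm1, at a mean of 0.635 CPM with DMSO and 0.581 CPM with GSI, had a log2 fold change of -0.18 with a large SE of 0.392 (FDR = 0.743).

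Downstream, 15 signalling kinases, their binding subunits and ubiquitin enzymes were tested, of which 5 were lower, 2 were higher and 8 passed in neither direction, with a median log2 fold change of -0.13. The lower genes included Irak4, the first kinase recruited to MyD88 (log2 fold change -0.42, FDR = 0.000399), and Traf6, a ubiquitin ligase of the pathway (-0.34, FDR = 0.000650). The higher genes were Tab1, a subunit of the TAK1 complex (0.39, FDR = 0.00376), and Ikbke, an IRF kinase (0.33, FDR = 0.000664). Of 12 genes that restrain receptor signalling 11 were tested, and 5 were lower, 1 was higher and 5 passed in neither direction, with a median of -0.19. Sigirr, a receptor that blocks MyD88 signalling, had a log2 fold change of -0.59 (FDR = 0.0165), the phosphatase gene Inpp5d one of -0.55 (FDR = 3.98e-06) and the adaptor gene Dok3 one of -0.35 (FDR = 0.00260). Socs1, a suppressor of cytokine and receptor signalling, was at 39.0 and 43.2 CPM with DMSO and 58.7 and 54.5 CPM with GSI (log2 fold change 0.46, FDR = 7.46e-05). These counts are descriptions of lists beside the 21.9% of genes lower and 19% higher over all genes tested.

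**Figure D5:**
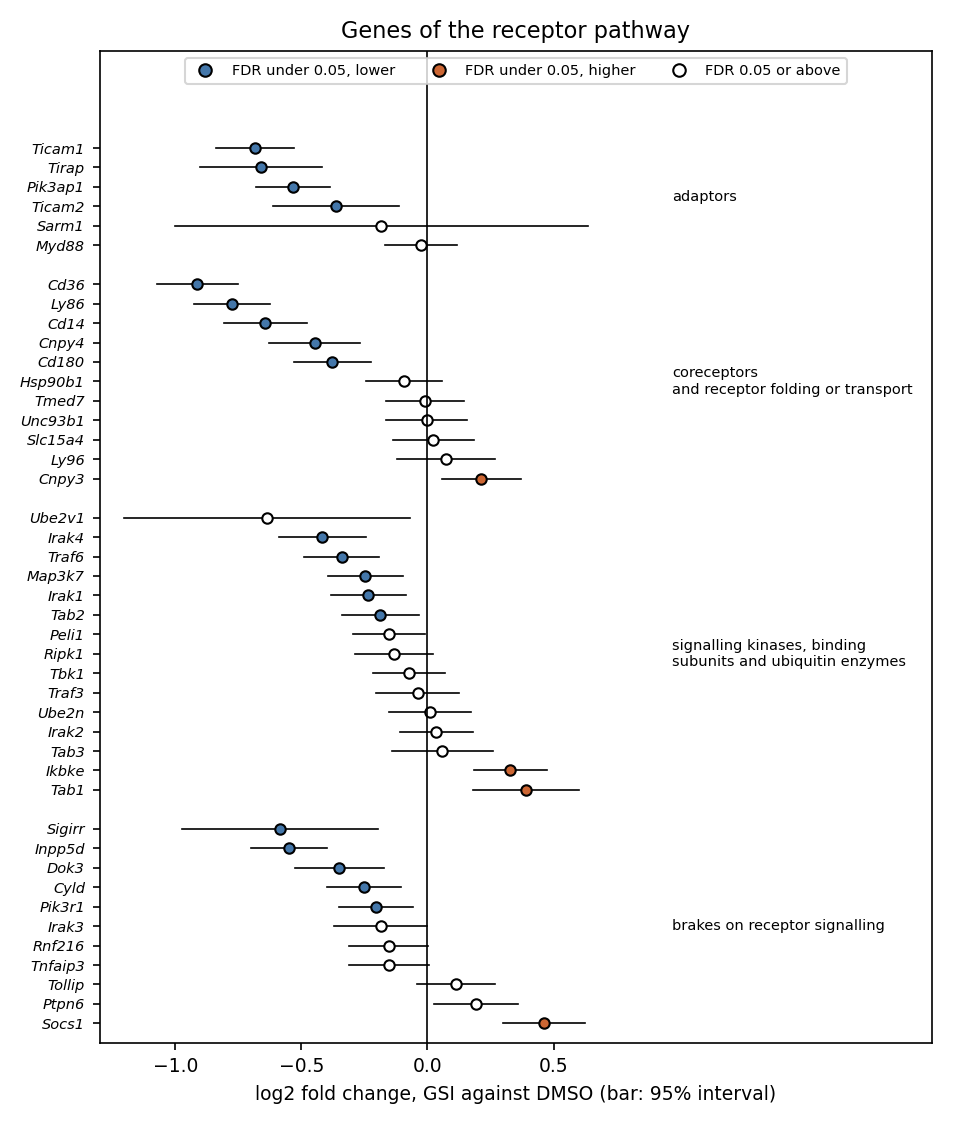
The horizontal axis is the log2 fold change of GSI against DMSO for the tested genes of 4 lists of the receptor pathway, points are edgeR estimates from 2 libraries per group, bars are 95% intervals, and filled points have an FDR under 0.05, blue for lower and orange for higher. Cd36 at -0.91, Ly86 at -0.77 and Ticam1 at -0.68 lie furthest to the left among the filled points, Myd88 and Unc93b1 sit at 0, and Tab1 and Socs1 lie furthest to the right.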

How the data were processed

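Strand-specific poly(A) libraries were sequenced on a NextSeq system; per the paper's methods the authors trimmed reads with Trimmomatic, aligned them to mm10 with STAR and counted them per gene with HTSeq. The submitters' processing notes list STAR 2.5.0a, bcl2fastq, Picard, mm9 and mm10 without roles. Read length and the HTSeq mode and strand setting were not given in the sources used here. The deposited values are raw counts per gene, without normalization, in 16 columns, which were matched to samples by title and summed over the 4 runs of each replicate.

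The test was edgeR 4.0.16 (R 4.3.3) with filterByExpr, TMM normalization, glmQLFit and glmQLFTest on a design with group alone, and p-values were adjusted by Benjamini-Hochberg over the 13211 genes tested (biological coefficient of variation 0.0579). The SE of a log2 fold change is its size over the square root of F. CPM used TMM-adjusted library sizes, with depth as given above. Levels per kilobase, positions and transcript words used GENCODE M21 on GRCm38, which holds 46574 of the 47069 gene IDs (98.9%), and promoters came from RefSeq. Itgam had more than 1 row, and the row whose ID the annotation names so was used.

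The receptors and gene lists were chosen with earlier results of these data known. Named are all receptors, Tlr11 and Tlr12, all adaptors and coreceptors, and the up to 4 largest changes with an FDR under 0.05 of the other pathway lists, beside genes that define cell types. The summed level of the B cell genes is not reported here. As alternatives, each library was left out in turn, the replicate number was added as a block, the 16 runs entered as samples, normalization used RLE factors or none, the filter on low counts was changed, a 1.5-fold cut-off was applied, and DESeq2 1.42.0 replaced edgeR. The scripts were tested on simulated data.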

Additional observations from a re-analysis of the deposited data

How the results depend on the processing

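The number of receptors called lower was 8 in the reported fit and 6 to 8 under the alternatives, and the number called higher was 0 in every alternative run. Leaving out 1 library gave 6 to 8 lower and 1 to 2 past both thresholds, the second being Tlr5 without GSI replicate 2. In those fits the lone library was assumed to vary like the other group. Under a 1.5-fold cut-off instead of the log2 fold change of 1.5, 3 receptors were past both thresholds, namely Tlr8, Tlr5 and Tlr13, limits that 9.05% of the genes tested passed in the lower direction. Over 109 values of single receptors under the alternatives, 104 kept their direction and their side of the threshold, 5 kept their direction but lost the call, and 0 reversed. The lost calls were Tlr4 without GSI replicate 1 and Tlr5 without GSI replicate 1, without either DMSO replicate and with DESeq2 (log2 fold change -0.90, FDR = 0.256). Tlr5 did not pass the filter when the 16 runs were taken as samples. Log2 fold changes ranged from -1.74 to -1.59 for Tlr8, from -0.89 to -0.70 for Tlr13, from -0.48 to -0.26 for Tlr2 and from -0.38 to -0.14 for Tlr4. Samples of the same replicate number deviated together only weakly (correlation 0.175 over 10957 genes), and with 2 such pairs the numbers were not taken to pair the libraries. With the replicate block, 8 receptors were lower, 0 were higher and 1 was past both thresholds, while 6444 of all genes tested were called against 5392 without it. Tlr5 had 12 to 48 counts per library and the other receptors at least 1242. The parts of counting error and of replicate spread in the unstable value of Tlr5 were not tested.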

Other observations

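The remaining mouse Toll-like receptors were outside the set described. Tlr11, a sensor of parasite and bacterial proteins, was at 6.93 and 6.35 CPM in the DMSO libraries and at 2.34 and 3.18 CPM in the GSI libraries (log2 fold change -1.26, SE 0.147, edgeR FDR = 8.55e-07). Tlr12, its partner for a parasite profilin, was at 14.8 and 15.7 CPM with DMSO and at 13.3 and 17.5 CPM with GSI, with overlapping groups and a log2 fold change of 0.01 (95% interval -0.22 to 0.24, FDR = 0.943).

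Of 13 cytosolic sensors of microbial products tested, 5 were lower, 4 were higher and 4 passed in neither direction, with a median log2 fold change of -0.17. Over all genes tested, 21.9% were lower and 19% were higher. Nlrp3, an inflammasome sensor, was at 957 and 1031 CPM with DMSO and at 646 and 685 CPM with GSI (log2 fold change -0.58, FDR = 3.28e-06). Naip5, a sensor of flagellin, had a log2 fold change of -0.38 (FDR = 0.00120), and Nod2, a sensor of bacterial wall fragments, one of -0.35 (FDR = 0.000576). Ddx58, which encodes the viral RNA sensor RIG-I, rose from 152 and 140 CPM with DMSO to 192 and 175 CPM with GSI (log2 fold change 0.32, FDR = 0.00142).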
